A study of Homo sapiens with 8 samples.

Results

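Oxidative phosphorylation subunits, the nuclear-encoded parts of respiratory complexes I to IV and of ATP synthase (complex V), were followed in hypoxic Huh-1 cells after knockdown of LSD1. Members were the rows of the deposited table whose symbols start with NDUFA, NDUFB, NDUFC, NDUFS or NDUFV (complex I), SDHA to SDHD (complex II), UQCR or CYC1 (complex III), COX4I, COX5, COX6, COX7 or COX8 (complex IV) and ATP5 (complex V). Pseudogenes and assembly factors were left out, namely ATP5EP2, COX6BP1, the 3 NDUFAF rows and ATP5SL (now DMAC2). This gave 85 of the 34694 rows: 39 in complex I, 4 in complex II, 9 in complex III, 17 in complex IV and 16 in complex V.

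Huh-1 is an established line of human hepatocellular carcinoma cells. The siLSD1 cultures were reverse-transfected with an siRNA against LSD1, the histone demethylase encoded by KDM1A, and the siControl cultures with a control siRNA. After 48 h all cultures, in both groups, were placed in 1% O2 for 24 h. RNA was measured on Illumina bead arrays for 2 biological replicates per group, called cultures here, with 2 technical arrays each, 8 arrays in all. Every culture was hypoxic, and all results are from 1 cell line and from siRNA with sequences not analysed here.

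KDM1A, the target of the siRNA, had non-normalized signals of 1576, 1568, 1343 and 1327 on the siLSD1 arrays, against 3920.1, 3642, 5035 and 3998 on the siControl arrays. Its log2 difference was -1.48 ± 0.17 (standard error, SE, from limma; n = 2 cultures per group; limma's adjusted p = 0.199). The median signal of an array lay between 168 and 179.9, and the 92 ERCC control rows, taken as a measure of background, reached 228 at most. Of 13 hepatocyte markers, among them ALB and APOB, 13 exceeded all ERCC rows on 4 or more arrays. Of 13 markers of fibroblasts, endothelium and leukocytes 4 were, LUM, CD68 and LYZ among them, and PTPRC, PECAM1 and COL1A1 were not.

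Complexes I to IV form the respiratory chain of the inner mitochondrial membrane. Complexes I and II pass electrons from NADH and succinate to ubiquinone, complex III passes them on to cytochrome c, and complex IV passes them to oxygen. The proton gradient that complexes I, III and IV build drives ATP synthesis by complex V. Complexes I, III, IV and V also hold subunits encoded in mitochondrial DNA, for which no row was matched (0 of 13). In hypoxia, cells are known to lower electron flow through the chain, in part through HIF, which induces NDUFA4L2 and the COX4I2 isoform in other cell types. Since these are bulk cultures, fewer cells and less RNA per cell cannot be told apart.

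Of the 85 subunits, 78 exceeded all ERCC rows on 4 or more of the 8 arrays and were tested, together with the other rows that met this filter (16049 in all). Levels are log2 values after background correction and quantile normalization, with the 2 arrays of a culture averaged. A difference is siLSD1 minus siControl, positive where siLSD1 is higher. With 2 cultures per group no subunit passed limma's test: 0 of 78 had an adjusted p under 0.05, as did 0% of all rows, and the smallest adjusted p of a subunit was 0.199 (NDUFC1). At an unadjusted p under 0.05 there were 5 subunits with lower levels in siLSD1 (5.74% of all rows) and 0 with higher levels (5.72% of all rows). These 5 were NDUFC1, NDUFS1, SDHA, CYC1 and ATP5D. The smallest two-sided exact permutation p for 2 against 2 is 0.333, so no single value can pass such a test here.

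Estimates lay lower in siLSD1 for 51 of the 78 subunits and higher for 27, while 48.9% of all rows had lower estimates. The median difference of the 78 was -0.085, against 0.0057 over all rows. For 53 subunits the difference was smaller than 0.2 in either direction. The 4 siLSD1 arrays were lower than each of the 4 siControl arrays for 11 subunits, 14.1% of those tested, against 11.5% of all rows. They were higher than each of them for 2 subunits, COX5B and ATP5S, 2.56% of those tested, against 12% of all rows. For the remaining 65 the arrays of the groups overlapped. These counts depended on single cultures, and so did the shares of all rows. Without siControl culture 2, 42 subunits lay below (53.8%, against 30.1% of all rows) and 6 above (7.69%, against 30.1%). Without siControl culture 1, 16 lay below (20.5%, against 23.1%) and 14 above (17.9%, against 24.7%). Without siLSD1 culture 2, 28 lay below (35.9%, against 17.6%) and 4 above (5.13%, against 19.3%). Without siLSD1 culture 1, 12 lay above (15.4%, against 17.1%). The count below stayed at 11 there, and the share of all rows below was not computed. Without the first or the second siLSD1 array, 4 lay above in each case, against 13.3% and 13.1% of all rows. None of these shares carries a test.

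**Figure D1:**
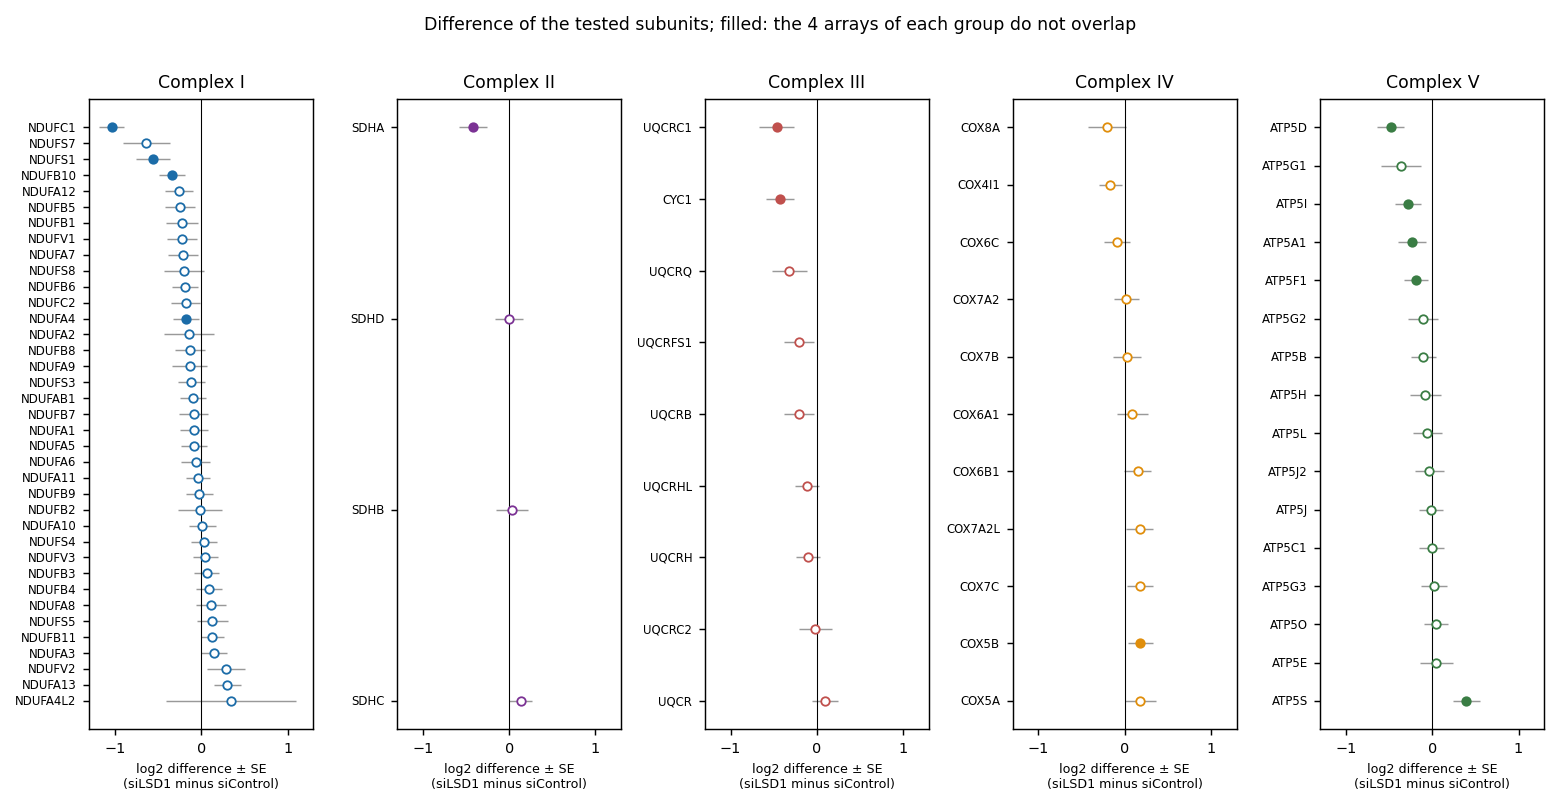
Log2 difference (siLSD1 minus siControl) with its SE for the tested subunits reported by name, 1 panel per complex; filled points mark subunits whose 4 siLSD1 and 4 siControl arrays do not overlap. NDUFC1, at -1.04, stands lowest, and NDUFA4L2 has the widest SE, 0.76.

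NDUFC1, a small accessory subunit of the membrane arm of complex I, had the lowest estimate of the 78. Its non-normalized signals were 1641, 1556, 1275 and 1294 on the siLSD1 arrays, against 3059, 2999, 3189 and 2774 on the siControl arrays. The highest siLSD1 array thus lay well below the lowest siControl array. The log2 difference was -1.04 ± 0.15 (SE), which is 0.486 times the siControl level, with an adjusted p of 0.199 by limma over all rows. It was -1.0 against siControl culture 1 and -1.08 against siControl culture 2, so the size did not rest on 1 control culture. With all 8 arrays fitted and the technical replicates modelled, NDUFC1 was the 1 subunit called (adjusted p = 0.00282 by limma), in a fit that called 1.55% of all rows as lower and 1.57% as higher. It was also the 1 subunit over 2-fold lower, as were 0.685% of all rows. Over 1.5-fold in either direction were 2 subunits, NDUFC1 and NDUFS7, and 7.65% of all rows.

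The promoter windows of 4 subunits are printed because their values are described in detail here: NDUFC1 has the lowest estimate, SDHA and UQCRC1 are the catalytic and core subunits with lower arrays whose windows hold the NRF1 motif, and NDUFA4L2 differed most between the control cultures. Each run is the 250 bases before a RefSeq gene start (GRCh38.p14), 5′ to 3′ on the gene's strand. NDUFC1 is at chr4:139301235-139301484 on the minus strand, SDHA at chr5:218070-218319 on the plus strand, UQCRC1 at chr3:48609647-48609896 on the minus strand and NDUFA4L2 at chr12:57240763-57241012 on the minus strand. Capitals mark every match, on either strand, to GCGCA and GCGC with any 1 base between them, the core of the motif of NRF1 (an activator of respiratory genes), or to GCGTG, a core of the HIF response element. In UQCRC1 a match on one strand overlaps one on the other.
NDUFC1: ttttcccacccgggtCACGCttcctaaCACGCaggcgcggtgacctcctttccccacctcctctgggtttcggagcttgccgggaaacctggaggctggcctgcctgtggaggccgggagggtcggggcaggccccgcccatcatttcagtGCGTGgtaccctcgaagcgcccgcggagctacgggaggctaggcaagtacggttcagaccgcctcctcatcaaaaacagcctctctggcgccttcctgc
SDHA: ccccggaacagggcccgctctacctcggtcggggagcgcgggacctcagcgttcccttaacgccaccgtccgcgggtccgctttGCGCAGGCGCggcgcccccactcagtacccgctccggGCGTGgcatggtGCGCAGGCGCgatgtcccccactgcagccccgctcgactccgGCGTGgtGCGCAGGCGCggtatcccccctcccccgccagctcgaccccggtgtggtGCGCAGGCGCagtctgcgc
UQCRC1: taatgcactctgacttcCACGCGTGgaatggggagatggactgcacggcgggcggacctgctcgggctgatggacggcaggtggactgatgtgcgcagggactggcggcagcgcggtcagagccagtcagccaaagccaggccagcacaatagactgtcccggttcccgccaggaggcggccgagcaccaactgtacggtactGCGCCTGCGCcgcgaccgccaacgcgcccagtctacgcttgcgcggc
NDUFA4L2: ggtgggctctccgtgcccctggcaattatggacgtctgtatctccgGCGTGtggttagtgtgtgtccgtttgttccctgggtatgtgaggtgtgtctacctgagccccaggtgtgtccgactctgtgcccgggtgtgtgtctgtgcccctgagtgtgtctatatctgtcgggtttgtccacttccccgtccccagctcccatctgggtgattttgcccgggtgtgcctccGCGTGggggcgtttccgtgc
SDHA holds 4 matches to the NRF1 core and UQCRC1 holds 1, as the choice of these genes required. The printed runs of NDUFC1 and NDUFA4L2 hold only GCGTG, at 3 and 2 places. NDUFC1 has 4 windows, which hold 0, 3, 2 and 0 GCGTG over 300 bases. The printed one was picked because it overlaps most with the window of a neighbouring gene, NAA15.

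A window was found for 68 of the 85 subunits, 82 windows in all, since some genes have several starts (NDUFC1 has 4). Over the whole window of 300 bases, from 250 before to 50 after the start, the NRF1 core was present in 18.3% of the 82 windows and in 5.78% of all 35116 RefSeq windows. CCGGAAG, an ETS-type core that GABPA binds, was present in 25.6% against 10.3%. AAGATGGCG, the core that YY1 binds, was present in 12.2% against 1.75%. Of the HIF cores, GCGTG was present in 48.8% against 36.5%, and ACGTG in 22% against 21.4%. All were searched on both strands. These shares describe letters in the windows, not bound sites.

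The NDUFC1 window printed here shares 230 bases of its 300-base window with that of NAA15, a subunit of an N-terminal acetyltransferase, whose start lies 271 bases away on the opposite strand. NAA15 (NARG1 in the table; chosen after its values were seen) had non-normalized signals of 671, 667, 554 and 524 on the siLSD1 arrays, against 517, 486, 419 and 460.2 on the siControl arrays. All siLSD1 arrays of NAA15 lay above all siControl arrays, with a log2 difference of 0.39 ± 0.17 (SE; limma's adjusted p = 0.473). Its estimate is thus opposite in sign to that of NDUFC1, and neither passed the test over all rows.

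Complex I had 38 tested subunits of 39, with 26 lower and 12 higher estimates, a range from -1.04 to 0.34 and a median of -0.092. In 4 of them (NDUFC1, NDUFS1, NDUFB10 and NDUFA4) no siLSD1 array reached the lowest siControl array after normalization. These are 10.5% of those tested, against 11.5% of all rows, and the non-normalized signals of NDUFS1 and NDUFA4 overlapped. All siLSD1 arrays lay above in 0 subunits, against 12% of all rows. By position in the enzyme, the N module, which binds NADH and its flavin, had a median of -0.15 (6 of 9 tested lower). The Q module, which hands electrons to ubiquinone, had -0.13 (6 of 6 lower), and the membrane arm and remaining subunits had -0.039 (14 of 23 lower).

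In the N module, NDUFS1, the largest iron-sulfur subunit, had log2 levels of 7.62 and 7.53 in the siLSD1 cultures, against 7.90 and 8.37 in the siControl cultures. Its difference was -0.56 ± 0.20 (SE; limma's adjusted p = 0.403). The non-normalized signals, 222 to 263 in siLSD1 and 260.3 to 402 in siControl, are near the highest ERCC signal of 228, and with the neqc normalization the difference was -0.052. NDUFV1, which binds NADH and flavin mononucleotide, stood at -0.23 ± 0.17, with siLSD1 levels of 11.88 and 12.21 against siControl levels of 12.29 and 12.24. NDUFV2, its iron-sulfur partner, went the other way at 0.29 ± 0.22, with 12.89 and 12.93 in siLSD1 against 12.34 and 12.90 in siControl. That difference rested on siControl culture 1: it was 0.57 against culture 1 and 0.011 against culture 2. The adjusted p of NDUFV1 and NDUFV2 was 0.698 and 0.700 (limma).

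In the Q module, NDUFS7, which carries the last iron-sulfur cluster before ubiquinone, had the lowest estimate. Its non-normalized signals were 3857, 3449, 4047 and 4328 on the siLSD1 arrays, against 8311, 8019, 4734 and 4939.8 on the siControl arrays. The 2 arrays of siControl culture 1 stood far above the rest, and those of culture 2 were close to the siLSD1 arrays, with which they overlapped after normalization. The log2 difference was -0.64 ± 0.27 (SE; limma's adjusted p = 0.464), -0.98 against siControl culture 1 and -0.30 against culture 2. NDUFS8 and NDUFS3, other core subunits of this module, stood at -0.20 ± 0.23 and -0.12 ± 0.15, each smaller than its SE.

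In the membrane arm, NDUFB10 had log2 levels of 12.72 and 12.87 in siLSD1 against 13.19 and 13.07 in siControl (difference -0.34 ± 0.15, limma's adjusted p = 0.478). The arrays of the groups did not overlap. NDUFA13, also known as GRIM-19, had the highest estimate in complex I but for NDUFA4L2, at 0.30 ± 0.16, with 11.02 and 11.18 in siLSD1 against 10.89 and 10.70 in siControl, and its arrays overlapped (named after its values were seen).

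NDUFA4 and its paralog NDUFA4L2 carry complex I names, although NDUFA4 is now counted as a complex IV subunit (COXFA4). NDUFA4 had log2 levels of 14.55 and 14.59 in siLSD1 against 14.85 and 14.65 in siControl, and a difference of -0.18 ± 0.15. After normalization its siLSD1 arrays all lay below its siControl arrays, but the difference was close in size to its SE (limma's adjusted p = 0.732). NDUFA4L2 is known from other cells as a HIF-induced gene. Its non-normalized signals were 771, 769, 853 and 755 on the siLSD1 arrays, against 302 and 279 on the arrays of siControl culture 1 and 1390.3 and 1405 on those of culture 2. The siLSD1 cultures thus lay between the control cultures, which differed by 2.41 on the log2 scale. The fitted difference of 0.34 ± 0.76 (limma's adjusted p = 0.917) combines 1.55 against siControl culture 1 with -0.86 against culture 2, and gives no direction.

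**Figure D2:**
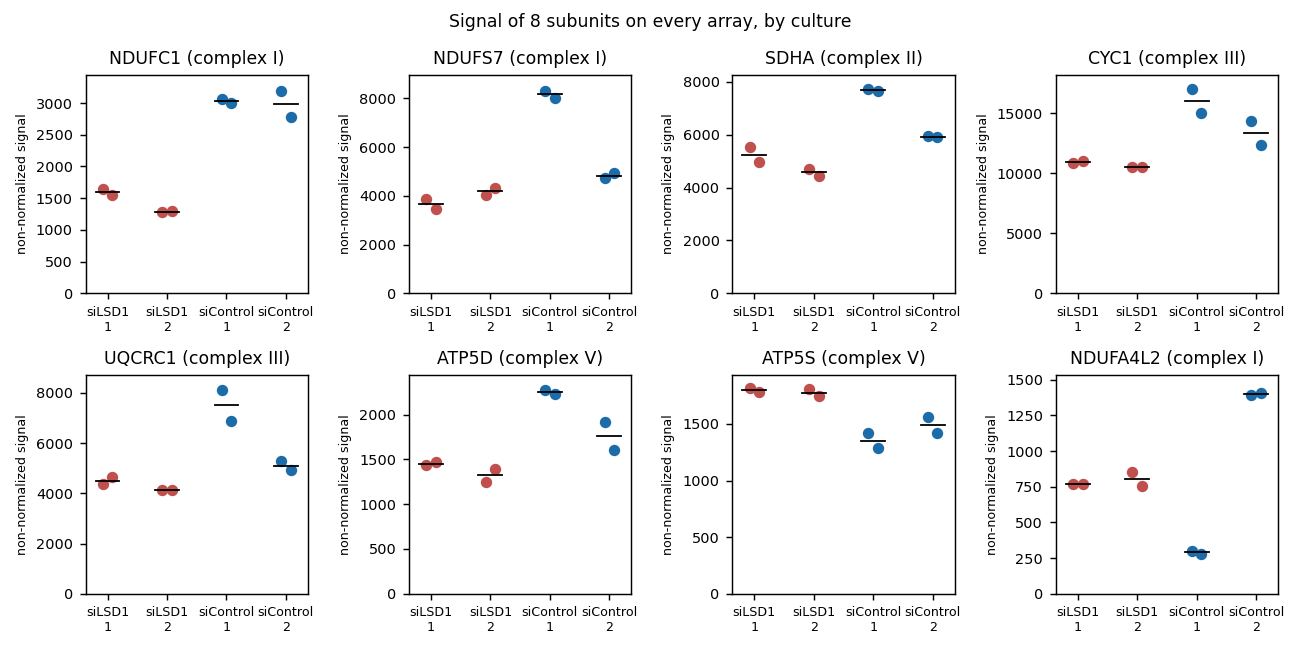
Non-normalized signal (linear axis from 0) of 8 subunits on each of the 8 arrays, grouped by culture, with bars at the culture means. NDUFC1 is low in both siLSD1 cultures against both siControl cultures, while in NDUFA4L2 the siLSD1 cultures lie between the siControl cultures, at 279 to 302 and 1390.3 to 1405.

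Complex II, succinate dehydrogenase, also belongs to the tricarboxylic acid cycle, and all 4 subunits were tested. The flavoprotein SDHA, which oxidises succinate, had non-normalized signals of 5522, 4969, 4704 and 4435 in siLSD1, against 7713, 7649, 5942 and 5916 in siControl. The arrays of the groups did not overlap, and those of siControl culture 1 were the highest. The log2 difference was -0.41 ± 0.16 (SE; limma's adjusted p = 0.434), -0.56 against siControl culture 1 and -0.27 against culture 2. The other subunits did not move with SDHA: the iron-sulfur subunit SDHB stood at 0.034 ± 0.19, and the membrane anchors SDHC and SDHD at 0.13 ± 0.14 and -0.0029 ± 0.16. Whether the SDHA probe also binds RNA of the pseudogenes SDHAP2 and SDHAP3, which have rows of their own, was not tested.

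Complex III, the cytochrome bc1 complex, had lower estimates for 8 of 9 subunits and the lowest median of the 5 complexes, -0.21, but 7 of the 9 had overlapping arrays. The siLSD1 arrays were all lower for 2 (22.2%, against 11.5% of all rows) and all higher for 0 (against 12%). CYC1, the cytochrome c1 heme protein, had non-normalized signals of 10837, 11059, 10532 and 10529 in siLSD1, against 17047, 15039, 14341 and 12372 in siControl. UQCRC1, a core protein on the matrix side, had 4372, 4643, 4130.4 and 4119 in siLSD1, against 8108, 6902, 5273 and 4934 in siControl. In both genes every siLSD1 array lay below every siControl array, and siControl culture 1 was the higher control. The log2 differences were -0.43 ± 0.16 for CYC1 and -0.47 ± 0.20 for UQCRC1 (limma's adjusted p = 0.423 and 0.465).

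The Rieske iron-sulfur protein UQCRFS1 stood at -0.21 ± 0.17, with log2 levels of 13.75 and 13.83 in siLSD1 against 14.17 and 13.83 in siControl. The second core protein, UQCRC2, stood at -0.017 ± 0.19 and so did not follow UQCRC1. The hinge protein UQCRH and its near-identical copy UQCRHL, which can share probes, stood at -0.11 ± 0.14 each. The 1 higher estimate, named after its value was seen, was UQCR (now UQCR11), at 0.098 ± 0.15. Against siControl culture 1 the median of complex III was -0.37, and against culture 2 it was -0.075.

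Complex IV, cytochrome c oxidase, had 3 lower and 8 higher estimates among 11 tested subunits, a median of 0.091 and a narrow range from -0.21 to 0.18. COX5B was the 1 subunit whose siLSD1 arrays all lay above the siControl arrays after normalization, at 14.44 and 14.51 against 14.21 and 14.37, a difference of 0.18 ± 0.15 (limma's adjusted p = 0.72). With each array scaled to its median it no longer did. COX5B makes 9.09% of the 11 tested, against 12% of all rows with higher arrays. Lower arrays were found for 0 of the 11, against 11.5% of all rows. COX5A, named after its value was seen, stood at 0.18 ± 0.18. The lowest estimates were COX8A at -0.21 ± 0.22 and COX4I1, the general isoform of subunit IV, at -0.16 ± 0.14. COX4I1 had log2 levels of 15.11 and 15.13 in siLSD1 against 15.28 and 15.29 in siControl.

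Of the 7 subunits that were not tested, 6 are alternative isoforms of complex IV. COX4I2, the isoform that hypoxia induces in other cells, had non-normalized signals of 103 to 121 in siLSD1 against 112 to 125 in siControl. COX6A2 and COX7A1, known as heart and skeletal muscle forms, and COX6B2, COX7B2 and COX8C, known from testis, were not tested either. With NDUFS6, an N module subunit of complex I, the signals of all 7 stayed between 101 and 186. Their partner isoforms were tested: COX6A1 stood at 0.091 ± 0.18, COX6B1 at 0.15 ± 0.15, COX7A2 at 0.019 ± 0.14, COX7A2L, which takes part in supercomplexes, at 0.18 ± 0.16, and COX7B at 0.027 ± 0.16. None of these differences exceeded 0.2, and the arrays overlapped in each.

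Complex V had 12 lower and 4 higher estimates among 16 subunits, with a median of -0.069. The siLSD1 arrays were all lower for 4 subunits (25%, against 11.5% of all rows) and all higher for 1 (6.25%, against 12%). ATP5D (now ATP5F1D), the delta subunit of the central stalk, had non-normalized signals of 1434, 1470.4, 1247 and 1395 in siLSD1, against 2278, 2228, 1915 and 1601 in siControl. No siLSD1 array reached the lowest siControl array. Its log2 difference was -0.48 ± 0.16 (SE; limma's adjusted p = 0.375), -0.62 against siControl culture 1 and -0.35 against culture 2. The others with lower arrays after normalization were ATP5I (ATP5ME, subunit e of the membrane part) at -0.28 ± 0.15, the catalytic-head subunit alpha ATP5A1 (ATP5F1A) at -0.24 ± 0.16, and ATP5F1 (ATP5PB, subunit b of the peripheral stalk) at -0.19 ± 0.14. The non-normalized signals of ATP5A1 and ATP5F1 overlapped. The adjusted p of these 3 lay between 0.567 and 0.693 (limma).

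ATP5B and ATP5C1 differed little: ATP5B (ATP5F1B), the catalytic beta subunit of the head, stood at -0.11 ± 0.14. ATP5C1 (ATP5F1C), the gamma subunit of the central stalk, stood at -0.0080 ± 0.15. ATP5G1, ATP5G2 and ATP5G3 (ATP5MC1 to ATP5MC3) encode the same mature c subunit of the rotor ring. They stood at -0.36 ± 0.23, -0.11 ± 0.17 and 0.015 ± 0.15, and overlapped in every case. ATP5G1 had log2 levels of 10.57 and 10.95 in siLSD1 against 11.36 and 10.89 in siControl, so that 1 siLSD1 culture lay above 1 siControl culture.

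ATP5S (now DMAC2L), known as coupling factor B and not an integral subunit, had the highest estimate of the 78. Its non-normalized signals were 1816, 1781, 1806 and 1747 in siLSD1, against 1422, 1285, 1561 and 1424 in siControl. Every siLSD1 array lay above every siControl array. The log2 difference was 0.39 ± 0.16 (SE; limma's adjusted p = 0.442), 0.50 against siControl culture 1 and 0.29 against culture 2.

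Cultures of the same group differed in these genes, which bears on every difference above. Between the siLSD1 cultures, culture 2 lay above culture 1 for 60 of 78 subunits (48% of all rows), with a median log2 difference of 0.11, and 0 subunits lay more than 1.5-fold apart. In complex I culture 2 was the higher for 33 of 38. Between the siControl cultures, culture 2 lay below culture 1 for 55 of 78 subunits (51.2% of all rows), with a median log2 difference of -0.17. The subunits more than 1.5-fold apart in siControl were NDUFA4L2, NDUFA2, NDUFB2 and NDUFS7, all in complex I, 5.13% of the 78 against 18% of all rows.

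**Figure D3:**
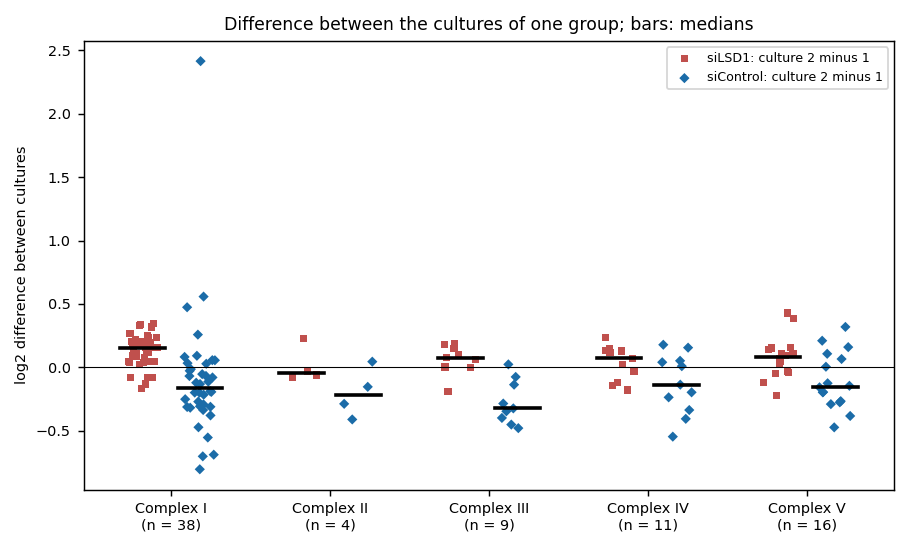
Log2 difference between the cultures of a group (culture 2 minus culture 1) for each tested subunit by complex, siLSD1 as squares and siControl as diamonds, with bars at the medians. In complex III the medians are 0.078 in siLSD1 and -0.32 in siControl, and the highest diamond is NDUFA4L2 at 2.41.

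Set against siControl culture 1 alone, the siLSD1 mean was lower for 55 of 78 subunits (50.1% of all rows) with a median of -0.17. Set against culture 2 alone it was lower for 39 of 78 (48.2% of all rows) with a median of -0.0017. These comparisons share the siLSD1 cultures. By complex the medians against culture 1 and culture 2 were -0.22 and -0.022 for complex I, -0.13 and 0.091 for complex II, -0.37 and -0.075 for complex III, 0.016 and 0.10 for complex IV and -0.18 and -0.050 for complex V. Medians of complexes I, III and V were thus below 0 against both controls, and that of complex IV above 0. Complex II changed sign, as it did under median scaling (-0.023). Against culture 2 alone, 20 of 38 subunits were lower in complex I, 1 of 4 in II, 7 of 9 in III, 2 of 11 in IV and 9 of 16 in V. Pooled within groups, the standard deviation of the medians between cultures was 0.11 (I), 0.099 (II), 0.17 (III), 0.074 (IV) and 0.079 (V). The medians over both controls are smaller in size than this for complexes I, II and V. For complexes III (-0.21) and IV (0.091) they are slightly larger. Their signs carry no test.

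**Figure D4:**
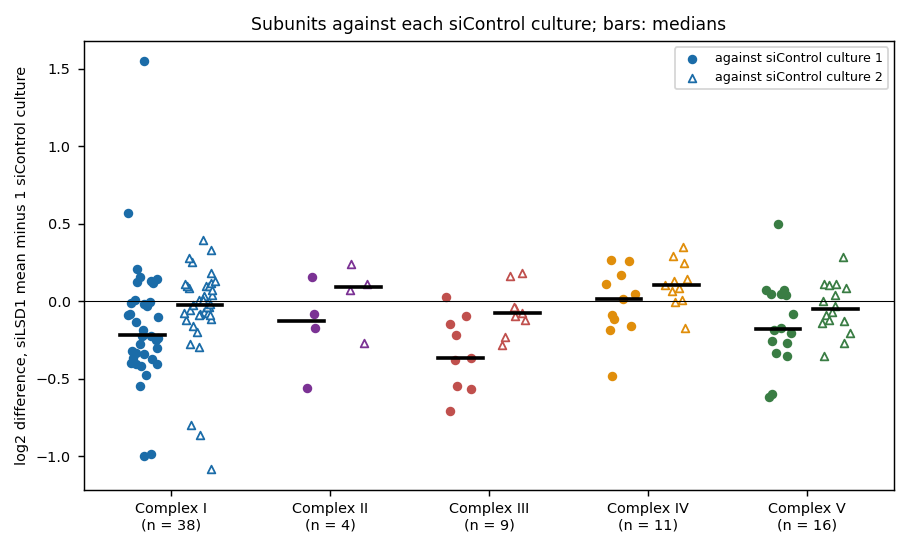
Log2 difference of the siLSD1 mean from siControl culture 1 (filled circles) and from siControl culture 2 (open triangles) for each tested subunit, by complex, with bars at the medians. The bars of complex III stand at -0.37 and -0.075, and those of complex IV at 0.016 and 0.10.

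Fitted without siControl culture 2, 18 subunits were called as lower (17.3% of all rows) and 3 as higher (17.7% of all rows). Fitted without siControl culture 1, 3 were called as lower (7.64% of all rows) and 0 as higher (6.82% of all rows). Those 3 were NDUFC1, NDUFS1 and NDUFA4L2. NDUFC1 was the 1 subunit called in the same direction in both fits (limma's adjusted p = 3.28e-06 without siControl culture 2 and 3.4e-06 without culture 1), while NDUFA4L2 was called as higher in one and lower in the other. In each of these fits the lone siControl culture is taken to have the spread of the siLSD1 cultures.

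Other genes of the pathway were taken from 5 lists. Of 52 listed assembly factors, which build the complexes but are not part of them, 49 were tested, with 28 lower and 21 higher estimates and a median of -0.032. SDHAF3, for complex II, stood at -0.57 ± 0.14, NDUFAF6, for complex I, at -0.56 ± 0.26, UQCC1, for complex III, at 0.38 ± 0.15 and NDUFAF1 at 0.37 ± 0.15. These 4 were picked as the largest differences among factors whose arrays did not overlap, and limma's adjusted p lay between 0.291 and 0.49. The siLSD1 arrays were all lower for 7 factors (14.3%, against 11.5% of all rows) and all higher for 6 (12.2%, against 12%). Genes named below for carriers, the tricarboxylic acid cycle and regulators were picked in the same way. Among 20 tested genes of mobile carriers and other electron inputs (median -0.14, 12 lower), the sulfide oxidoreductase SQOR stood at -0.58 ± 0.19 and the ubiquinone synthesis gene COQ6 at -0.47 ± 0.22. Among 17 tested genes of the tricarboxylic acid cycle and pyruvate entry (median -0.19, 12 lower), fumarate hydratase (FH) stood at -0.55 ± 0.26 and pyruvate carboxylase (PC) at -0.54 ± 0.15. The median of these 17 was -0.30 against siControl culture 1 (15 lower) and 0.039 against culture 2 (7 lower). That of the assembly factors changed sign as well, with -0.12 against culture 1 and 0.029 against culture 2. FH had log2 levels of 12.43 and 12.32 in the siLSD1 cultures, against 13.28 and 12.56 in the siControl cultures.

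Among 17 tested regulators of mitochondrial gene expression (median 0.040, 7 lower), TFB2M, a mitochondrial transcription factor, stood at 0.57 ± 0.16 and the ETS factor GABPA at 0.30 ± 0.14, while the nuclear receptor ESRRA stood at -0.39 ± 0.16. The non-normalized signals of GABPA, 227 to 253 in siLSD1 and 191 to 218 in siControl, are near the highest ERCC signal of 228. NRF1 was no brighter than the ERCC rows. A list of genes tied to the respiratory chain in hypoxia had 14 tested members, NDUFA4L2 and COX6B1 among them, and a median of -0.14. The siLSD1 arrays were all lower for 6 of the 14 (42.9%, against 11.5% of all rows) and all higher for 2 (14.3%, against 12%). This list had been written with earlier results of these data known, and nothing particular to it is read from these shares. The 6, named after their values were seen, were HIGD1A, which binds complex IV, at -0.67 ± 0.21, the ATP synthase inhibitor ATP5IF1 at -0.55 ± 0.15, the mitochondrial protease LONP1 at -0.44 ± 0.14, PDK1 at -0.41 ± 0.15, ISCU at -0.27 ± 0.14 and BNIP3 at -0.17 ± 0.14. The 2 with higher arrays were EPAS1, a HIF alpha subunit, at 0.81 ± 0.15, and HIGD2A at 0.21 ± 0.14 (named after its value was seen). EPAS1 was the 1 gene of these 5 pathway lists called with the technical replicates modelled (limma's adjusted p = 0.0227). That fit called 1.57% of all rows as higher and 1.55% as lower. In the fit of 2 cultures against 2, 0 genes of the 5 lists passed.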

How the data were processed

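Non-normalized intensity values and a detection p-value per row and array were deposited by the authors; they came from BeadStudio 3.1.1.0, per the submitters' processing notes. The authors' normalized table was deposited as well, and served only as an alternative, on the log2 scale; its normalization is not given in the sources used here. In limma 3.58.1 (R 4.3.3), intensities were background-corrected (normexp, offset 50), quantile-normalized and taken to log2. The 2 technical arrays of each biological replicate were averaged, and 2 siLSD1 were set against 2 siControl cultures with limma's moderated test, two-sided, with Benjamini-Hochberg adjustment over 16049 rows at 0.05. The few arrays limit the precision, and nothing in the labels says how far apart the cultures were grown.

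Rows had to be brighter than all 92 ERCC rows on at least 4 of 8 arrays. The detection p-value was not the filter, since 761 of 12255 rows brighter than every ERCC row on all arrays had a deposited detection p-value of 0.01 or more on all 8. Symbols were matched to RefSeq names (GRCh38.p14): 66 members were current, 18 older, and NDUFA4 is an older symbol of several genes. RefSeq supplied the promoter windows. The fit was tested on simulated data.

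The members and lists were chosen with earlier results of these data known. Named in full were core and cofactor-bearing subunits, isoform sets and, per complex, up to 4 subunits in each direction whose arrays did not overlap. Some items are not reported here by name. Replicate numbers are shared by the groups, but the labels do not say that a number marks a shared batch, and with 2 pairs the pairing was not used. Alternatives changed the background correction, scaling, filter, treatment of technical arrays and replicate block, or left out 1 replicate or array.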

Additional observations from a re-analysis of the deposited data

How the results depend on the processing

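Of 39 tested subunits named by the rule, 35 kept their sign under all 11 processing alternatives and 26 under all 23. ATP5G2 had no value under the filters on detection p. A changed filter, modelled technical replicates or a replicate block leave the difference of a subunit as it was. Among the processing alternatives, only those with other background correction, scaling or normalized values could therefore change a sign. With the technical replicates modelled, limma called 501 genes and 1 subunit (NDUFC1). With the replicate block it called 0 genes, and NDUFC1 had an adjusted p of 0.2 by limma. Same-numbered cultures deviated together with r = 0.121. Leaving out 1 replicate or array gave 0 to 5617 called genes and 0 to 21 called subunits, the highest without siControl biological replicate 2, which also gave complex medians of -0.22 (I), -0.13 (II), 0.016 (IV) and -0.18 (V). Over these fits the medians ranged from -0.22 to -0.022 (I), -0.13 to 0.091 (II), -0.37 to -0.075 (III), 0.016 to 0.11 (IV) and -0.18 to -0.042 (V). The ends for complex III came without siControl biological replicate 2 (-0.37) and without siControl biological replicate 1 (-0.075). Subunits with all siLSD1 arrays below numbered 11 to 42, and with all above 2 to 14; median scaling left 1 above. NDUFA4L2 was reversed, at -0.86, without siControl biological replicate 1, and stood at 1.55 without replicate 2. The cause was not tested.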
